A study of Homo sapiens with 4 samples.

Results

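The heat shock and cytosolic chaperone network was examined in ARP-1 cells, a line of human multiple myeloma, a cancer of plasma cells. A list of 48 gene symbols defined the network, and the deposited table held a row for 42 of them among its 15201 genes. The rule picks genes by symbol and uses no measured value, though the list was drawn up with earlier results of these data known. The 42 comprise 6 HSP70 and HSP110 genes, 9 J-domain (HSP40) genes, 3 HSP90 genes, 2 genes named as small heat shock proteins, 10 chaperonin genes and 12 regulators and co-chaperones. All 42 passed the filter of a mean of at least 1 FPKM (fragments per kilobase of transcript, scaled for library size). HSF1, HSPA1A, HSPA1B, DNAJA3, BAG6 and CHORDC1 are not analysed here, so the master regulator of the response and its best known inducible HSP70 pair do not enter any count. The list's name speaks of the cytosol, but HSPA9, TRAP1, HSPD1 and HSPE1 encode mitochondrial chaperones, and HSPA13 and DNAJB12 encode proteins of the endoplasmic reticulum. HSPB11 is now named IFT25, a subunit of the intraflagellar transport machinery, and was matched by its name in GENCODE release 29.

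WT libraries were compared with CfzR libraries. WT is wild-type ARP-1 (2 libraries), and CfzR is ARP-1 with carfilzomib resistance (2 libraries). Carfilzomib is an inhibitor of the proteasome, the protease that degrades ubiquitin-tagged proteins, and the comparison asks how resistant cells differ from their wild-type counterpart. The labels do not give the drug dose, the time under drug, whether the resistant cells are 1 clone, or whether replicates were separate cultures. The p-values therefore rest on the spread among 4 libraries, which may be technical.

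Heat shock proteins keep other proteins folded. HSP70 binds exposed stretches of unfolded chains, J-domain proteins bring it its clients and switch on its ATPase, nucleotide exchange factors such as the BAG proteins release the client, HSP90 matures kinases and hormone receptors, and the ring-shaped chaperonin TRiC folds actin and tubulin. The transcription factor HSF1 raises many of these genes when misfolded proteins build up, as they do when the proteasome is blocked. Plasma cells and myeloma cells secrete large amounts of antibody and carry a heavy folding load.

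HSF1 binds heat shock elements, inverted repeats of a GAA unit. A strict element of 3 units was sought in RefSeq promoters (GRCh38.p14; 250 bases before to 50 after each start), as GAA, NN, TTC, NN and GAA in a row (N is any base) or, on the other strand, TTC, NN, GAA, NN and TTC. Of the 42 listed genes with an entry in the promoter table, of which 37 were also measured, HSPA8, DNAJA1, DNAJB6 and CHORDC1 held it, against 0.490% of 35116 promoters of the same length. Every longer element contains the shorter pairs GAANNTTC and TTCNNGAA. GAANNTTC was in 9 of the 42 and in 6.77% of all promoters, and TTCNNGAA was in 6 of the 42 and in 7.74%. The 3 promoters of measured genes with the strict element are shown because such elements are the letters HSF1 is known to bind, in the gene's own direction, with the element in capitals.
HSPA8, chr11:123062087-123062386, minus strand: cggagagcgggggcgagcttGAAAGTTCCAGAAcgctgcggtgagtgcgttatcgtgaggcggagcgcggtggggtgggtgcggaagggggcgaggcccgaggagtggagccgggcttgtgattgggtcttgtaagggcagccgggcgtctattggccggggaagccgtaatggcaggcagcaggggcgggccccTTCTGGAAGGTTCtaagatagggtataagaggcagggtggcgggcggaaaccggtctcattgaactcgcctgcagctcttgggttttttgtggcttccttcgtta
DNAJA1, chr9:33025023-33025322, plus strand: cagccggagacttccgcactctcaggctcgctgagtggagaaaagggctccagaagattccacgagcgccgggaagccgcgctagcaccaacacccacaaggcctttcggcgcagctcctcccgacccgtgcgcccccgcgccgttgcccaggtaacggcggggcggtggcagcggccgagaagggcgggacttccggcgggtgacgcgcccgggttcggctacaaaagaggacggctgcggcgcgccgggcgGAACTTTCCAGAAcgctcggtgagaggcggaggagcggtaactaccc
DNAJB6, chr7:157336754-157337053, plus strand: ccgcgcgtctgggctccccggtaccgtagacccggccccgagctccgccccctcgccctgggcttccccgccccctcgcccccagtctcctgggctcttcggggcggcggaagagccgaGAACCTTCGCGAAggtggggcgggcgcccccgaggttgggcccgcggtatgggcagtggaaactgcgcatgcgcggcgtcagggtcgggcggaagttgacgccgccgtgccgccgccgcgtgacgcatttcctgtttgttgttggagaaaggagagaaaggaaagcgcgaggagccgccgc
HSPA8 held the element on both strands, at 230 to 218 and at 55 to 43 bases before the start. In DNAJB6 it lay 131 to 119 bases before the start, and in DNAJA1 at bases 4 to 16 of the transcript. A match is a description of these letters, not a site of binding.

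Over the 4 libraries, the sum of FPKM was lowest in CfzR replicate 1 (673265, against 877849 to 955284 in the other 3). That library differed from CfzR replicate 2 by transcript length and GC share (Spearman 0.466 and -0.350 across 12896 genes, against 0.146 and 0.0793 for the WT pair). The 8 mitochondrially encoded transcripts listed held 4.66% of all FPKM in WT replicate 1 and 1.96 to 2.46% in the other libraries. Of 8 plasma cell markers all 8 were measured, with 190 to 272 FPKM for SDC1, the CD138 antigen, and of 11 markers of other blood and tissue cells only NCAM1, an adhesion molecule that myeloma cells also carry, had a row (7.57 to 11.3 FPKM). The lowest mean of any gene in the deposited table was 0.500 FPKM, so a missing row gives no level. Sequencing depth is unknown, since FPKM hold no counts.

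No gene of the network passed the threshold (limma, adjusted p under 0.05 over 13411 genes), where 0.35% of all genes tested did (0.246% higher and 0.104% lower in CfzR). The smallest adjusted p among the 42 was 0.316. In a fit with the shared replicate number as a block, HSPA13 and STUB1 passed, where 9.26% of all genes did, and the labels do not say that these numbers pair the libraries. At an unadjusted p under 0.05 there were 5 members (11.9%), near the 11.1% of all genes tested: HSPA13 and DNAJB4 with higher levels in CfzR, and STUB1, BAG3 and DNAJB12 with lower levels. In signs, 28 of 42 log2 fold changes were negative (66.7%, against 52.9% of all genes tested), with a median of -0.16 against -0.02. Negative signs were more common among higher genes. At a filter of 5 FPKM 58.0% of all genes tested were negative, with a median of -0.06. Of the 40 members kept there 12 were positive, with a median of -0.17. Both CfzR libraries lay below both WT libraries for 17 members (40.5%, against 22.6% of all genes tested) and above both for 8 (19.0%, against 22.1%), so 25 were apart in either direction, where 44.7% of all genes tested were. The lower side depended on the kind of scaling. With TMM scaling (trimmed means of M-values) 15 lay below (35.7%, against 21.9% of all genes tested) and 7 above (16.7%, against 22.7%). There 14 of 42 signs were positive and the median was -0.136. After quantile normalization 9 lay below (21.4%, against 21.0% of all genes tested) and 11 above (26.2%, against 22.9%). There 21 of 42 signs were positive, and the median was 0.0087, against 0.0103 for all genes tested. In bulk RNA, fewer cells of a kind and less RNA per cell cannot be told apart.

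**Figure D1:**
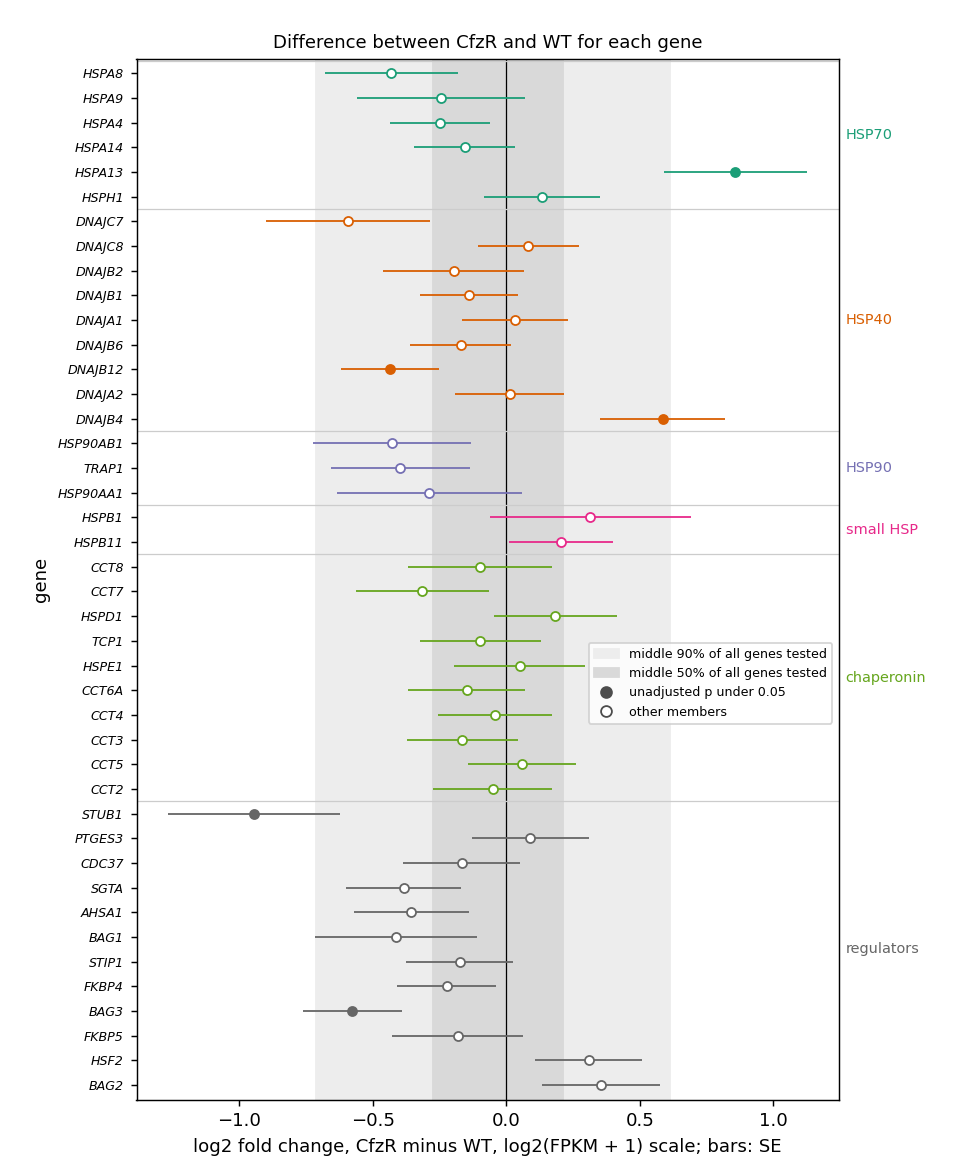
Log2 fold change (CfzR minus WT, log2(FPKM + 1) scale) of the 42 genes, by family, with standard errors as bars; filled points have an unadjusted p under 0.05 and grey bands hold the middle 50% and 90% of all genes tested. Most points lie left of 0, within the outer band, with STUB1 (-0.95) lowest and HSPA13 (0.86) highest.

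The CfzR libraries differed from WT by unlike amounts. Their medians relative to the WT mean were -0.19 in replicate 1 and -0.08 in replicate 2, and 21 members were below the WT mean in both (50%, against 34.3% of all genes tested). Between the CfzR replicates the 42 genes differed by a median of 0.24 in absolute log2 value, and between the WT replicates by 0.14. The median between the groups was 0.20. That value compares means of 2 libraries, which vary less than single libraries, so it cannot be set directly against the replicate gaps. The gap between the CfzR replicates ran with GC share across the 42 members as it did across all genes (Spearman -0.474 and, for length, 0.327; the points share 2 libraries). With the trend on length and GC share removed, 10 of 42 signs were positive, the median was -0.14 and no member passed.

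**Figure D2:**
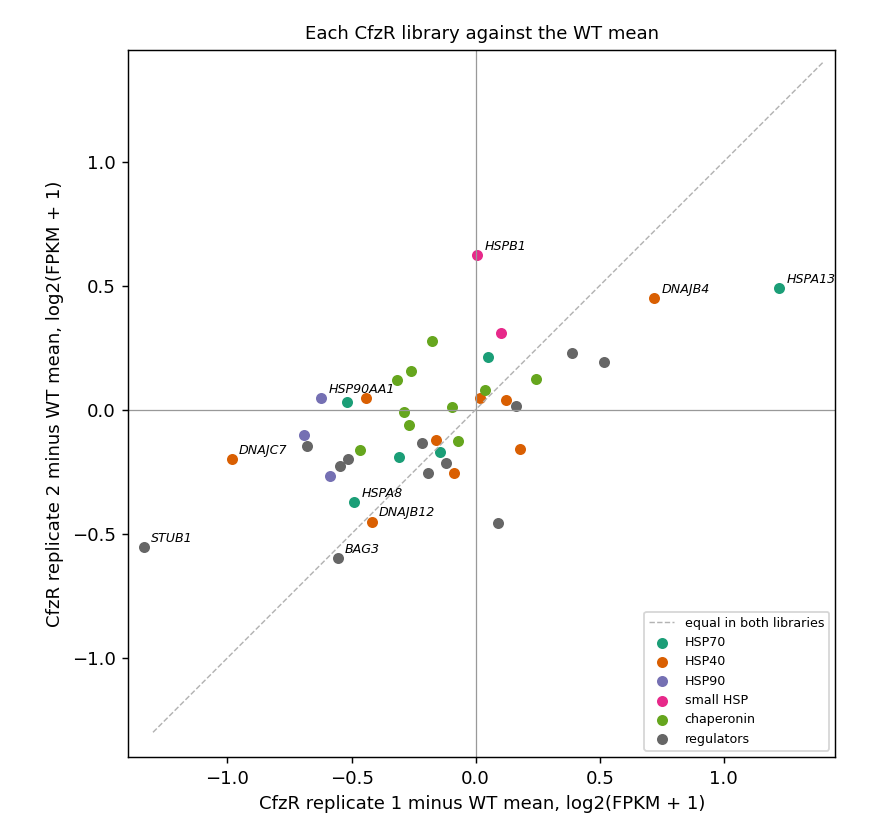
Each gene's level in CfzR replicate 1 (horizontal) and CfzR replicate 2 (vertical) minus the WT mean, on the log2(FPKM + 1) scale, coloured by family; the dashed line marks equal differences. BAG3 and DNAJB12 lie near the line below 0, HSPA13 and STUB1 are farther from 0 in replicate 1, and HSPB1 is away from 0 only in replicate 2.

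Among HSP70 genes, 4 of 6 had lower mean log2 levels in CfzR, and HSPA13, the 1 member of the family with an unadjusted p under 0.05, was higher. HSPA8, the constitutive HSP70 of the cytosol that also feeds chaperone-mediated autophagy, was the highest of them at 375 and 446 (WT) and 291 and 316 FPKM (CfzR). Both CfzR libraries were below both WT libraries, with a log2 fold change of -0.43 (SE 0.25, limma adjusted p = 0.549), which shrank to -0.14 after quantile normalization. HSPA8 carries 17 named pseudogenes in GENCODE, so the assignment of its reads is uncertain. Across the network 17 of the 42 genes have pseudogenes named by their own symbol, P and a number, and 19 overlap a gene on the opposite strand. Pseudogenes under other names were not counted, so a count of 0 does not clear a gene of this limit.

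HSPA13, an HSP70-related ATPase of the endoplasmic reticulum and microsomes, lies on chromosome 21 (14371115 to 14383484, minus strand, GENCODE release 29 on GRCh38). It stood at 15.4 and 15.5 (WT) and 37.4 and 22.1 FPKM (CfzR). Every CfzR value was above every WT value, but the CfzR pair spread widely (29.7 ± 10.8 against 15.4 ± 0.0697, SD, n = 2 each). The ratio of means was 1.93 and the log2 fold change 0.86 (SE 0.27, adjusted p = 0.316), and leaving out CfzR replicate 1 gave 0.49, while leaving out the other gave 1.22.

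HSPH1, the HSP110 exchange factor that heat shock induces strongly, overlapped between groups at 10.01 and 13.5 (WT) and 12.1 and 13.7 FPKM (CfzR), giving 0.13 on the log2 scale (adjusted p = 0.820). HSPA4, also of the HSP110 type, stood at 46.9 and 45.6 (WT) and 37.2 and 40.4 FPKM (CfzR). Its groups did not overlap, yet its log2 fold change of -0.25 (SE 0.19) had an adjusted p of 0.631. HSPA14, a ribosome-associated HSP70 relative, had means of 20.4 and 18.2 FPKM, and HSPA9, mortalin of mitochondria, 131 and 109.5 with overlapping groups. Outside the list, HSPA6, an HSP70 gene that is nearly silent without stress, stood at 0.499 and 0.522 (WT) and 0.396 and 0.607 FPKM (CfzR), below the filter in every library. The 4 values overlapped between the groups and lie near the lowest mean of any gene in the deposited table (0.500 FPKM).

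The J-domain genes were divided, with 5 of 9 negative and 4 positive log2 fold changes. DNAJB1, the heat-induced partner of HSP70, was tight in both groups, at 33.8 and 33.1 (WT) and 29.8 and 30.7 FPKM (CfzR), for a log2 fold change of -0.14 (SE 0.18, adjusted p = 0.774). DNAJB12, which anchors HSP70 at the endoplasmic reticulum membrane for degradation of misfolded membrane proteins, stood at 20.9 and 21.8 (WT) and 15.7 and 15.4 FPKM (CfzR). Replicates lay close together in both groups and the groups were apart, with a level 1.37-fold higher in WT, at a log2 fold change of -0.43 (SE 0.18, adjusted p = 0.449). DNAJB4, a low-level relative of DNAJB1, stood at 2.15 and 1.81 (WT) and 3.90 and 3.07 FPKM (CfzR), 1.76-fold by means, at a log2 fold change of 0.59 (SE 0.23, adjusted p = 0.425). Removal of the length and GC trend took that log2 fold change to 0.28.

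DNAJC7, a co-chaperone that binds both HSP70 and HSP90, was the highest of the 9 J-domain members. DNAJC1, a J-domain gene outside the 48, was higher still, with means of 750.3 and 499 FPKM in WT and CfzR. DNAJC7 stood at 154 and 193 (WT) and 86.8 and 150.0 FPKM (CfzR), with a log2 fold change of -0.59 (SE 0.31, adjusted p = 0.513). The value was -0.98 for CfzR replicate 1 alone and -0.20 for replicate 2. DNAJA1 and DNAJA2, the farnesylated partners of cytosolic HSP70, had log2 fold changes of 0.03 and 0.01, both with overlapping groups. DNAJB2 (48.5 and 42.1 FPKM in WT and CfzR), DNAJB6, a suppressor of polyglutamine aggregation (22.8 and 20.1), and DNAJC8, a splicing-associated J-protein (50.9 and 53.9), completed the family. Of the genes with the strict promoter element shown above, DNAJA1 overlapped between groups. HSPA8 and DNAJB6 were lower in both CfzR libraries than in both WT libraries, as were 22.6% of all genes tested. Their log2 fold changes were -0.14 and -0.10 after quantile normalization. Whether the element bears on these levels was not tested.

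All 3 HSP90 genes had negative log2 fold changes (median -0.40). HSP90AB1, the constitutive cytosolic form, stood at 624 and 804 (WT) and 471 and 587 FPKM (CfzR), without overlap, for a log2 fold change of -0.43 (SE 0.30, adjusted p = 0.598). After quantile normalization this was -0.10, and it was -0.25 without WT replicate 2 and -0.27 without CfzR replicate 1. HSP90AA1, the heat-inducible form, overlapped between groups at 106 and 185 (WT) and 90.5 and 144 FPKM (CfzR), with replicate 2 higher than replicate 1 in each group. TRAP1, the mitochondrial HSP90, stood at 151 and 155 (WT) and 94.2 and 142 FPKM (CfzR), giving -0.40 on the log2 scale (adjusted p = 0.580). With CfzR replicate 2 left out TRAP1 gave -0.69, and with CfzR replicate 1 left out -0.10, while the family median gave -0.62 and -0.10.

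A ratio of an inducible to a constitutive gene within a library is free of any single scale factor per library, though not of quantile normalization. HSP90AA1 stood at 0.169 and 0.230 of HSP90AB1 in WT and at 0.192 and 0.246 in CfzR, and the groups overlapped. DNAJB1 stood at 2.34 and 2.30 times DNAJA2 in WT and at 1.81 and 2.39 times in CfzR, again with overlap. Over these 2 ratios the exact permutation test (two-sided) gave p = 0.667 and 1, both 1 after Benjamini-Hochberg adjustment, where 2 libraries against 2 cannot go below 0.333. Neither ratio kept its direction when each library was left out in turn. The planned ratio with HSPA1A and HSPA1B is not given since they are not analysed here.

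HSPB1, the small heat shock protein HSP27, which holds unfolded proteins as oligomers, was the most abundant gene of the network and ranked 86 of the 15201 genes. It stood at 1565 and 1526 (WT) and 1552 and 2380 FPKM (CfzR). CfzR replicate 1 lay between the WT libraries and only CfzR replicate 2 was higher, so the log2 fold change of 0.31 (SE 0.38, adjusted p = 0.754) became 0.0060 without CfzR replicate 2. After quantile normalization of all 4 libraries it was 0.59 (limma adjusted p = 0.298). HSPB1 alone held 26.9 and 23.5% of the summed FPKM of the 42 genes in WT and 30.2 and 36.0% in CfzR. HSPB11 stood at 40.3 and 37.8 (WT) and 41.9 and 48.5 FPKM (CfzR), without overlap and with an adjusted p of 0.696. The only other small heat shock gene measured, HSPB6, was near the filter at 0.949 to 2.003 FPKM.

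**Figure D3:**
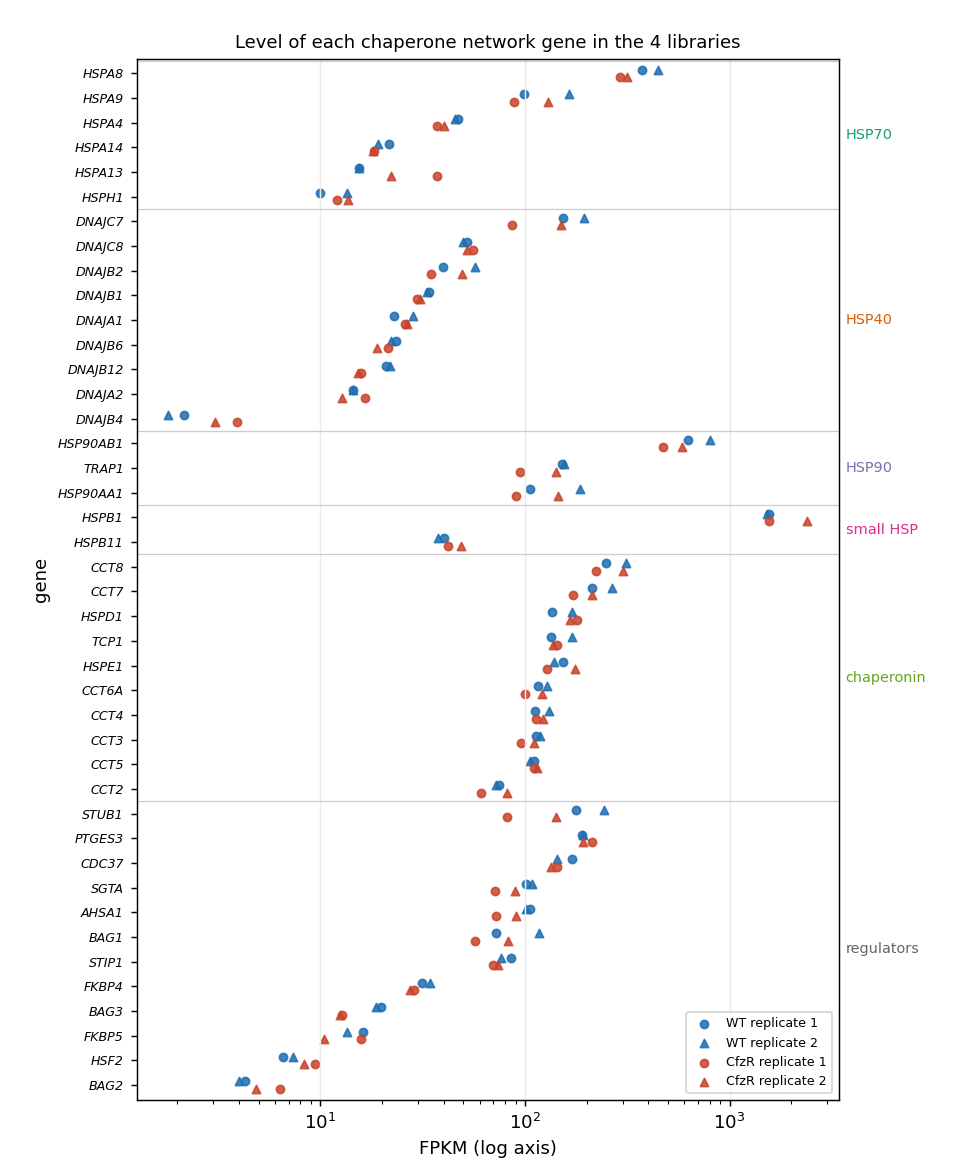
FPKM (log axis) of each of the 42 genes in every library, WT in blue and CfzR in red, circles for replicate 1 and triangles for replicate 2. Levels span from DNAJB4 (1.81 to 3.90 FPKM) to HSPB1 (1526 to 2380 FPKM), and 17 of the 42 genes have groups that overlap.

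The chaperonin family had a median log2 fold change of -0.075, which turned to 0.131 after quantile normalization. TRiC is built of 8 different subunits encoded by TCP1 and 7 CCT genes, and 7 of the 8 had negative log2 fold changes, all small, from -0.31 to 0.06. TCP1 stood at 134 and 169 (WT) and 143 and 138 FPKM (CfzR), and CCT2 at 74.4 and 72.2 against 61.1 and 81.8. CCT3 stood at 113 and 118 (WT) and 95.8 and 111 FPKM (CfzR), and CCT4 at 112 and 132 against 114 and 122. Of these 4 only CCT3 had groups apart.
CCT5 stood at 110.4 and 105.5 (WT) and 110.8 and 114 FPKM (CfzR), the only subunit with a positive log2 fold change (0.06). CCT6A stood at 116 and 129 FPKM against 100.1 and 122, and CCT8 at 249 and 310.5 against 223 and 302, both with overlap. CCT7 stood at 214 and 266 (WT) and 172 and 213 FPKM (CfzR), without overlap and with the most negative log2 fold change of the complex (-0.31, SE 0.25, adjusted p = 0.646). For CCT7 this was -0.06 after quantile normalization and -0.16 with either WT replicate 2 or CfzR replicate 1 left out. These directions rest on the kind of scaling. After quantile normalization 6 subunits turned positive, from 0.03 for CCT3 to 0.20 for CCT8. With TMM scaling no subunit changed sign, and the negative values ran from -0.29 for CCT7 to -0.02 for CCT4.

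TRiC subunits are incorporated in equal number, while their transcripts were not equal in any library. CCT2 was the lowest and CCT8 the highest subunit in all 4 libraries, with CCT8 at 3.34 and 4.30 times CCT2 in WT and at 3.65 and 3.69 times in CfzR. The coefficient of variation over the 8 subunits was 42.2 and 51.0% in WT and 39.8 and 47.9% in CfzR. Rank correlations of subunit order between pairs of libraries were 0.810 to 0.976 (8 genes). The mitochondrial chaperonin genes HSPD1 (HSP60; 136 and 170 FPKM in WT, 180 and 166 in CfzR) and HSPE1 (HSP10; 153 and 138 in WT, 129 and 176 in CfzR) overlapped between groups. HSPD1 and HSPE1 overlap each other on opposite strands and have 17 and 26 named pseudogenes, and with no strand setting given their reads are uncertain.

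**Figure D4:**
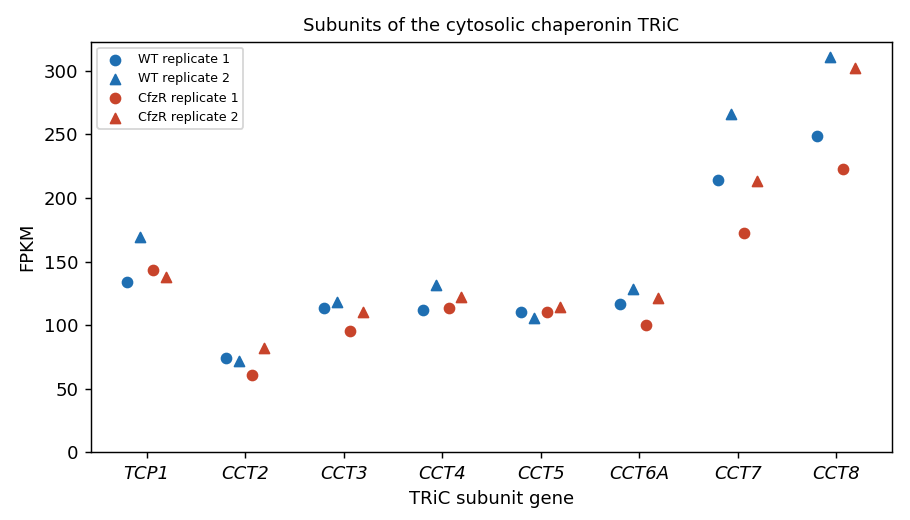
FPKM of the 8 TRiC subunit genes in each library, WT in blue and CfzR in red, circles for replicate 1 and triangles for replicate 2. CCT8 and CCT7 stand above and CCT2 below the other subunits in every library.

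Of the 12 regulators, 9 had negative log2 fold changes (median -0.20, and -0.204 and -0.207 in the CfzR libraries taken singly), where 52.9% of all genes tested were negative. Their groups were apart below WT in 6 (50%, against 22.6% of all genes tested) and above WT in 3 (25%, against 22.1%). HSF2, the HSF1 relative that shares its elements, stood at 6.54 and 7.34 (WT) and 9.38 and 8.29 FPKM (CfzR), for a log2 fold change of 0.31 (SE 0.20, adjusted p = 0.576). BAG3, which couples HSP70 to selective autophagy of aggregates and is induced by HSF1, lies on chromosome 10 (119651370 to 119677819, plus strand). It stood at 19.9 and 18.8 (WT) and 12.8 and 12.4 FPKM (CfzR), with means of 19.3 ± 0.803 and 12.6 ± 0.292 (SD, n = 2 each). The gap between groups was several times that between replicates, a 1.53-fold higher level in WT, at a log2 fold change of -0.58 (SE 0.18, adjusted p = 0.323). Its log2 fold change was between -0.62 and -0.46 under all 14 alternatives, and its adjusted p was never under 0.0713.

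STUB1, the ubiquitin ligase CHIP, which tags clients held by HSP70 and HSP90 for the proteasome, had the most negative log2 fold change of the network. The gene lies on chromosome 16 (680224 to 682870, plus strand). It stood at 177 and 244 (WT) and 81.6 and 141 FPKM (CfzR), without overlap, a level 1.89-fold higher in WT, for a log2 fold change of -0.95 (SE 0.32, adjusted p = 0.349). Leaving out CfzR replicate 1 gave -0.55, and leaving out the other CfzR library gave -1.34. STUB1 overlaps JMJD8 on the opposite strand, which stood at 30.4 and 29.9 (WT) and 20.2 and 24.2 FPKM (CfzR). Reads in the stretch shared by STUB1 and JMJD8 cannot be told apart if strand was not used.

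The other nucleotide exchange and ligase partners were BAG1, which stood at 72.4 and 117 (WT) and 57.1 and 83.1 FPKM (CfzR) with overlap, and BAG2, an inhibitor of STUB1. BAG2 stood at 4.29 and 3.998 (WT) and 6.36 and 4.87 FPKM (CfzR), apart and higher in CfzR, for a log2 fold change of 0.35 (SE 0.22, adjusted p = 0.564). This was 0.10 with the length and GC trend removed and 0.19 with CfzR replicate 1 left out. AHSA1, the activator of the HSP90 ATPase, had means of 104 and 81.3 FPKM in WT and CfzR, and SGTA, which guides tail-anchored proteins, 104 and 80.1, both without overlap (adjusted p = 0.558 and 0.537). With CfzR replicate 1 left out, their log2 fold changes went from -0.36 to -0.20 and from -0.39 to -0.23. STIP1 (HOP), the adaptor between HSP70 and HSP90, had means of 80.9 and 71.4 FPKM, and FKBP4, a prolyl isomerase of receptor complexes, 32.9 and 28.0. CDC37, the kinase adaptor, had means of 157 and 139 FPKM with overlap and a sign that turned after quantile normalization, and FKBP5, a glucocorticoid-induced isomerase, 14.8 and 13.1 with overlap. PTGES3, the p23 co-chaperone, stood at 190.0 and 191 (WT) and 214 and 193 FPKM (CfzR).

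Grouped by induction, 13 of 16 members named as heat-induced from textbook knowledge were measured. Of these 6 had positive and 7 negative log2 fold changes (53.8% negative, against 52.9% of all genes tested), and the median was -0.14. Without overlap 1 was above WT (7.69%, against 22.1% of all genes tested) and 6 were below (46.2%, against 22.6%). The 1 above was DNAJB4, and the 6 below were HSPA8, DNAJB1, BAG3, STIP1, AHSA1 and FKBP4. After quantile normalization the log2 fold changes of these 6 ran from -0.54 for BAG3 to -0.0086 for STIP1, with -0.05 for DNAJB1. HSPA8, called constitutive above, was also named as heat-induced here. No heat-induced member passed the threshold.

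A wider list of 120 other chaperone network genes had 94 tested, and 0 passed by limma, with 6 at an unadjusted p under 0.05 (6.38%, against 11.1% of all genes tested) and a median log2 fold change of -0.09. Clusterin (CLU), an extracellular chaperone whose gene stress induces, was nearest the threshold. It stood at 4.26 and 3.36 (WT) and 12.99 and 11.6 FPKM (CfzR), 3.23-fold by means, for a log2 fold change of 1.47 (SE 0.21, adjusted p = 0.0554). PDCL3 and TXNDC9, phosducin-like cofactors that regulate TRiC, were both lower in CfzR without overlap. PDCL3 stood at 52.0 and 68.4 (WT) and 31.3 and 32.3 FPKM (CfzR), giving -0.89 on the log2 scale (adjusted p = 0.197).
TXNDC9 stood at 13.1 and 13.8 (WT) and 7.95 and 7.03 FPKM (CfzR), giving -0.77 on the log2 scale (adjusted p = 0.218). The 2 genes lie on the same chromosome (PDCL3 on chromosome 2 from 100562690 to 100576735, TXNDC9 from 99318982 to 99340702), while a further relative, PDCL, overlapped between groups at 4.93 to 7.18 FPKM. DNAJC30, a mitochondrial J-domain protein, stood at 13.7 and 14.1 (WT) and 22.9 and 29.1 FPKM (CfzR), with an adjusted p of 0.197. HMOX1, heme oxygenase, stood at 19.95 and 17.7 (WT) and 10.04 and 12.2 FPKM (CfzR), with an adjusted p of 0.274, and CLPB, a mitochondrial disaggregase, had means of 28.4 and 20.4 FPKM (adjusted p = 0.434).
By list, 0 genes passed among 23 other J-domain proteins, 7 other HSP70 co-chaperones, 26 other HSP90 co-chaperones, 12 prefoldin and chaperonin partners, 16 other HSF regulators and targets, 8 mitochondrial chaperones and proteases, 1 other HSP110 gene and 1 other small heat shock gene. Without overlap, where 22.6% of all genes tested were lower and 22.1% higher in CfzR, the J-domain list had 6 lower and 6 higher, the HSP70 co-chaperones 2 and 1, and the HSP90 co-chaperones 4 and 4. The prefoldin and chaperonin partners had 6 lower and 2 higher, the HSF regulators and targets 3 and 3, and the mitochondrial list 1 and 0.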

How the data were processed

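Per the labels' protocols, TRIzol RNA of ARP-1 was made into mRNA libraries, 2 of WT and 2 of CfzR. The authors deposited 1 table of FPKM values. Per the submitters' processing notes the tools included STAR and Cufflinks. No version, build, annotation or strand setting is given in the sources used here. Control columns were read as WT, the only other group. Counting error cannot be given, since depth is unknown.

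Gene IDs were matched to symbols for 15027 of 15201 genes, and positions came from GENCODE release 29 (GRCh38), not from the authors. Values were taken as log2(FPKM + 1), 13411 genes averaging 1 FPKM or more were kept, and limma 3.58.1 (R 4.3.3) was used to compare the groups (eBayes with trend, two-sided, Benjamini-Hochberg over all genes, threshold 0.05). The 2 ratios were compared by exact permutation (scipy 1.17.1); the planned ratio of HSPA1A and HSPA1B to HSPA8 was not run. The filter and pseudocount understate changes of low genes.

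The members and lists were chosen with earlier results of these data known. Values in every library are given for the HSF, inducible, HSP90 and TRiC genes, for members with an unadjusted p under 0.05, and for the largest change in each direction per family; others are given by means, and a few in every library because their values were seen. From each of the other lists, up to 4 genes with an unadjusted p under 0.05 are named, 6 in all, and the remaining ones named were chosen after their values were seen. The alternatives were other pseudocounts, filters and scalings (TMM, trimmed means of M-values; quantile), no trend, a replicate block, leaving out each library and removing the trend on length and GC share (splines, available for 12896 genes, 96.2%). Counts of non-overlapping members under scalings were added after seeing the data.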

Additional observations from a re-analysis of the deposited data

How the results depend on the processing

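No member passed under 13 of the 14 alternatives. With a replicate block 2 did, STUB1 and HSPA13 (adjusted p = 0.00167 and 0.00177), where 1242 of all genes passed (487 higher and 755 lower, 9.26% of those tested) against 47 without it. The labels do not say that the numbers pair the libraries, the differences between replicates of the groups correlated at 0.252 across genes, and the blocked fit leaves 1 residual degree of freedom. With the block and the length and GC trend removed, 262 genes and 0 members passed. A filter at 5 FPKM left 27 genes past the threshold, with fewer genes tested. Leaving out 1 library gave 16 (CfzR replicate 1), 17 (CfzR replicate 2), 148 (WT replicate 2) and 260 (WT replicate 1) genes past the threshold, 0 members, and members' medians of -0.185 to -0.0724; the lone library is then assumed to vary like the others. The median was -0.136 with TMM scaling. It was 0.0087 after quantile normalization, the cause of which was not tested.

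Of 42 members 25 kept their sign under all alternatives. After quantile normalization the log2 fold changes were 0.0914 for CCT2, 0.0261 for CCT3, 0.201 for CCT8, 0.0418 for CCT6A, 0.127 for TCP1, 0.135 for CCT4 and 0.0441 for CDC37. With the length and GC trend removed, with or without the block, they were -0.0350 for CCT5, -0.0462 for HSPH1, -0.0030 for PTGES3, 0.0010 for CDC37, -0.0546 for DNAJA1 and -0.111 for DNAJA2. With 1 library left out they ran from -0.259 to 0.155 for CCT2, -0.158 to 0.0715 for CCT4, -0.316 to 0.119 for CCT8, -0.120 to 0.185 for DNAJA1, -0.157 to 0.181 for DNAJA2, -0.453 to 0.0577 for DNAJB2, -0.456 to 0.0915 for FKBP5, -0.689 to 0.113 for HSP90AA1, -0.601 to 0.113 for HSPA9, -0.176 to 0.276 for HSPE1, -0.0664 to 0.332 for HSPH1 and -0.267 to 0.0707 for TCP1. The log2 difference of the ratio of HSP90AA1 to HSP90AB1 ran from -0.0824 to 0.360, and that of DNAJB1 to DNAJA2 from -0.356 to 0.0434. With 2 libraries a group, small differences are not resolved, and counts of 0 do not show that genes were unchanged.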

Other observations

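The 42 genes together held 0.632 and 0.681% of all FPKM in WT and 0.763 and 0.754% in CfzR. Their summed FPKM overlapped between groups, at 5809 and 6501 in WT and 5135 and 6615 in CfzR. The sum over all genes, by which the shares are divided, was lower in CfzR (673265 and 877849, against 918617 and 955284 in WT). Without HSPB1 the shares were 0.462 and 0.521% in WT and 0.532 and 0.482% in CfzR, which overlap. Among all 15201 genes, 14 of the 42 were among the 1000 highest and 40 lay above the median level.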
